A study of Mus musculus with 6 samples.

Results

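The genes described here flank *Cdkn2a* on mouse chromosome 4. They were chosen by position alone, as the listed genes that start between 80 and 96 Mb on chromosome 4 of GRCm38, with *Cdkn2a*, *Cdkn2b* and *Rps6* left out. Of 82 such genes 79 remained, out of 20856 genes with values. RNA sequencing had been done on 6 cell lines grown from liver tumors of C57BL/6 mice. In every tumor *Myc* had been delivered on a transposon vector by hydrodynamic tail vein injection, which transfects hepatocytes, together with the px330 plasmid that encodes Cas9 and a single guide RNA. The guide targeted *Trp53* in 3 lines (labelled sgp53) and *Kmt2c*, which encodes the histone methyltransferase MLL3, in the other 3 (labelled sgMll3), and no line was treated further. The comparison asked, line by line, whether neighbours of *Cdkn2a* lay low together in the *Myc*; sg*Kmt2c* lines relative to the *Myc*; sg*Trp53* lines.

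The lines were grown from tumors and are not isogenic, each may carry its own edits of the target gene, and neither genotype has both target genes intact. Outgrown cells were passaged on collagen until no fibroblasts were visible. The labels speak of independent triplicates without naming the mouse of each line, and the descriptions of sg*Kmt2c* replicates 2 and 3 share a leading digit, so p-values measure the spread between these samples. In what follows a line is called by its genotype and replicate number.

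*Cdkn2a* encodes the tumor suppressors INK4A and ARF, which restrain the cell cycle through RB and p53. In human tumors the interval that holds it is often deleted, and deletions that reach beyond it also remove *MTAP* and the type I interferon genes. Loss of a chromosome segment lowers many neighbouring transcripts at once, whereas a change in the regulation of a single promoter need not touch them, and RNA levels alone do not tell copy number from regulation.

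Between 3680068 and 6878625 reads per line fell on listed genes, and the sg*Kmt2c* lines were the shallower. A single read on a transcript of 2 kb corresponded to 0.0726 to 0.136 RPKM (reads on a gene, scaled to its transcript length and to the reads of the library). *Trp53* stood at 17.2 to 19.4 RPKM among sg*Trp53* lines and at 92.2 to 124 RPKM among sg*Kmt2c* lines. *Kmt2c* itself reached 24.2, 18.4 and 19.2 RPKM in sg*Trp53* 1, 2 and 3 and 19.7, 24.97 and 9.51 RPKM in sg*Kmt2c* 1, 2 and 3, so its RNA level did not separate the genotypes. The lines differed in cell type markers. The 12 hepatocyte markers summed to 33.5, 10.3 and 22.6 RPKM among sg*Trp53* lines and to 1235, 5.66 and 175.6 RPKM among sg*Kmt2c* lines. The 7 biliary and progenitor markers summed to 1045, 176.2 and 1168 RPKM and to 3534, 314.3 and 616.8 RPKM. The 9 fibroblast markers summed to 18.5, 996 and 290.4 RPKM and to 0.282, 155.7 and 121.1 RPKM, and 7 of the 9 were at 0 in sg*Kmt2c* 1. Across the 6 endothelial markers no sum exceeded 1.17 RPKM. The 6 immune markers summed to 20.03 to 49.8 RPKM among sg*Trp53* lines and to 5.35 to 14.2 RPKM among sg*Kmt2c* lines.

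Most of the interval was silent. Of the 79 genes 31 reached 1 RPKM in at least 3 of the 6 lines and were tested, and the other 48 did not. In 9 of these 48 no line had a read, and 40 had at most 10 reads over all 6 lines. The predicted genes with names beginning with Gm made up 36 of the 79, of which 6 were tested, and 16 of the 31 tested genes overlap another listed gene. Whether the counting used strand is not stated, so reads of overlapping genes may be shared.

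No flanking gene passed an adjusted p-value under 0.05 by limma, where 0.129% of all 11617 tested genes did, and the smallest adjusted p-value of a flanking gene was 0.304 for *Fggy*. At an unadjusted p-value under 0.05, 3 flanking genes were lower among sg*Kmt2c* lines (background 5.34%) and 1 was higher (background 3.25%). The lower genes were *Hacd4*, *Gm12606* and *Fggy*, and the higher was *Gm12603*. The genotypes were apart, with every sg*Kmt2c* value below the sg*Trp53* values, in 7 of the 31 genes (background 10.4%, rest of chromosome 4 16.1%). They were apart with every sg*Kmt2c* value above in 1 (background 5.72%). The 7 were *Mpdz*, *Nfib*, *Snapc3*, *Hacd4*, *Gm12606*, *Caap1* and *Fggy*. *Hacd4* and *Gm12606* were under 1 RPKM in every sg*Kmt2c* line and passed the filter on low values only through the sg*Trp53* lines, so the place of both genes in these counts of lower genes follows from the filter. *Fggy* reached 1 RPKM only in replicate 1 of the sg*Kmt2c* lines and met the filter mainly through the sg*Trp53* lines. The log2 fold change, sg*Kmt2c* over sg*Trp53* on the log2(RPKM + 1) scale, was negative in 23 of 31 genes (74.2%, against 58.0% of all genes). Its median was -0.38, beside -0.09 over all genes and -0.33 over the rest of chromosome 4.

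The mean of the genotype concealed a difference between lines. Each line was compared with the mean of the 3 sg*Trp53* lines in log2(RPKM + 1), and each sg*Trp53* line with the mean of the other 2, and the difference is called the deviation. In the sg*Trp53* lines the median deviation of the 31 genes was 0.02, -0.11 and 0.04. It was -0.75 in sg*Kmt2c* 1, -0.34 in sg*Kmt2c* 2 and 0.09 in sg*Kmt2c* 3. By their median the neighbours of *Cdkn2a* thus lay low in sg*Kmt2c* 1, less low in sg*Kmt2c* 2, and at the level of the sg*Trp53* lines in sg*Kmt2c* 3. Put as RPKM, the median flanking gene stood at 55.7%, 73.3% and 105.8% of its sg*Trp53* mean in the 3 sg*Kmt2c* lines. The median over all tested genes was itself shifted, by -0.15, -0.06 and -0.02, and relative to that shift the flanking genes stood at -0.60, -0.28 and 0.11. In a bulk sample fewer cells that express a gene and less RNA per cell cannot be told apart. Among the 25 genes with other names than Gm the median deviations were -0.91, -0.35 and 0.03.

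Counts of genes gave the same order of lines. A deviation under -0.5 was seen in 19 of 31 genes in sg*Kmt2c* 1 (background 32.4%), in 12 in sg*Kmt2c* 2 (background 20.4%) and in 4 in sg*Kmt2c* 3 (background 14.6%). In the sg*Trp53* lines it was seen in 3, 7 and 0 genes, with backgrounds of 11.5%, 17.6% and 7.16%. The lowest of the 6 lines was sg*Kmt2c* 1 in 18 of 31 genes, though this line was also the lowest in 35.4% of all genes. sg*Kmt2c* 2 was the lowest in 4 genes (background 17.8%) and sg*Kmt2c* 3 in 1 (background 12.3%). The sg*Trp53* lines were the lowest in 3, 4 and 0 genes, with backgrounds of 8.16%, 16.5% and 8.81%. In sg*Kmt2c* 1, 21 genes lay under every sg*Trp53* line (background 44.6%). In sg*Kmt2c* 2 there were 20 (background 35.4%), and in sg*Kmt2c* 3 there were 10 (background 29.6%). Over the rest of chromosome 4, 61.0%, 30.1% and 12.6% of genes had a deviation under -0.5 in sg*Kmt2c* 1, 2 and 3. There these lines were the lowest in 61.4%, 14.0% and 4.76% of genes, and lay under every sg*Trp53* line in 71.2%, 51.9% and 26.4%.

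**Figure D1:**
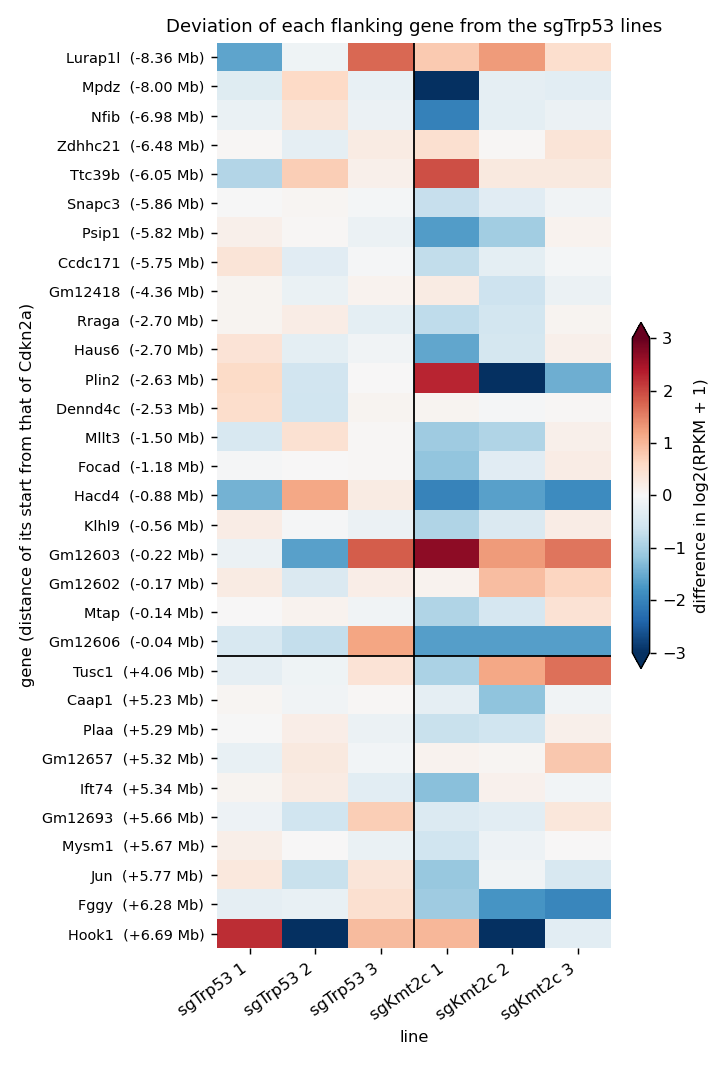
Heat map of the deviation, the difference in log2(RPKM + 1) from the mean of the sgTrp53 lines (for an sgTrp53 line, of the other 2), for the 31 tested genes flanking Cdkn2a in order of position (rows) in the 6 lines (columns). Red is higher and blue lower, colours end at a difference of 3 in either direction, and the lines drawn mark the genotypes and the place of Cdkn2a. Blue fills most of the column of sgKmt2c 1 (19 genes under -0.5), less of sgKmt2c 2 (12 genes) and little of sgKmt2c 3 (4 genes).

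The most frequent pattern was a low level in sg*Kmt2c* 1 and 2 and not in sg*Kmt2c* 3. In these 10 genes, *Psip1*, *Ccdc171*, *Rraga*, *Haus6*, *Mllt3*, *Focad*, *Klhl9*, *Mtap*, *Plaa* and *Mysm1*, sg*Kmt2c* 1 and 2 lay under every sg*Trp53* line and sg*Kmt2c* 3 did not. They are 32.3% of the flanking genes, beside 28.0% of the rest of chromosome 4 and a background of 10.6% of all genes. In 7 genes no sg*Kmt2c* line lay under the sg*Trp53* lines (background 33.9%, rest of chromosome 4 19.0%). These were *Lurap1l*, *Zdhhc21*, *Ttc39b*, *Dennd4c*, *Gm12603*, *Gm12602* and *Gm12657*. Leaving out a line changed the counts accordingly. Without sg*Kmt2c* 3 the genotypes did not overlap, lower in sg*Kmt2c*, in 17 of 31 genes (background 21.0%, rest of chromosome 4 44.1%), and 11 had an unadjusted p-value under 0.05 by limma (background 8.52%, rest of chromosome 4 22.1%). Without sg*Kmt2c* 1 these counts were 9 (background 15.9%) and 4 (background 5.31%). Without sg*Kmt2c* 2 they were 8 (background 17.1%, rest of chromosome 4 22.5%) and 3 (background 5.11%, rest of chromosome 4 7.69%). Each of these counts includes *Hacd4* and *Gm12606*, whose place in it follows from the filter on low values. None of the 31 genes passed an adjusted p-value under 0.05 by limma in any of these fits.

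Of the 5 tested genes known for their loss with *CDKN2A* in human tumors, 4 showed that pattern. *Mtap*, the phosphorylase of the methionine salvage pathway, lies from 89137122 to 89181081. It had a level of 90.2, 93.6 and 84.95 RPKM in sg*Trp53* cells compared with 47.1, 63.2 and 121.7 RPKM in sg*Kmt2c* cells. Its 621, 652 and 1455 reads in the latter show that the gene was transcribed in all 3, and in RPKM sg*Kmt2c* 3 exceeded every sg*Trp53* line. The log2 fold change was -0.32 (95% confidence interval -1.15 to 0.50, standard error 0.35, limma adjusted p = 0.780), smaller than the spread between the sg*Kmt2c* lines. *Klhl9*, a substrate adaptor of a cullin ubiquitin ligase, lies from 88718292 to 88722465. It measured 32.9, 29.0 and 27.2 RPKM across the sg*Trp53* lines, against 15.3, 21.7 and 34.97 across the sg*Kmt2c* lines. *Focad*, which encodes focadhesin, reached 103.4, 105.4 and 107.3 RPKM in sg*Trp53* 1, 2 and 3 and 45.7, 83.2 and 124.1 RPKM in sg*Kmt2c* 1, 2 and 3. In both genes, as in *Mtap*, sg*Kmt2c* 1 was the lowest and sg*Kmt2c* 3 the highest of the 6 lines. *Mllt3*, a subunit of the super elongation complex and a fusion partner of KMT2A in leukemia, had a level of 6.59, 10.7 and 8.61 RPKM in sg*Trp53* cells compared with 3.53, 4.11 and 9.56 RPKM in sg*Kmt2c* cells. The log2 fold changes of *Klhl9*, *Focad* and *Mllt3* were -0.37, -0.43 and -0.60, and none had an unadjusted p-value under 0.05 by limma. Of the 9 names on this list 8 are listed genes, 5 were tested with a median log2 fold change of -0.43, and *Dmrta1*, *Elavl2* and *Ifne* had at most 4 reads over all lines.

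*Hacd4*, the remaining gene of this list, differed from its neighbours. It encodes a dehydratase of very long chain fatty acid elongation and overlaps *Focad* in the annotation, from 88396144 to 88438928. It had 21, 94 and 73 reads (1.26, 6.46 and 3.87 RPKM) among sg*Trp53* lines. In the sg*Kmt2c* lines it had 1, 4 and 2 reads (0.0775, 0.396 and 0.171 RPKM). No line of either genotype overlapped the other genotype, and the log2 fold change was -1.85 (standard error 0.47). Because the gene passed the filter on low values only through the genotype in which it was high, these values are a description and no test is given. *Hacd4* was low in sg*Kmt2c* 3 as well, where *Focad* was at its highest, so the overlapping genes differed in which line was high. The difference rests on few reads in a line, and among the sg*Trp53* lines the highest was also the line with the most fibroblast marker RNA, whose part in the result was not tested.

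The promoters of 23 of the 31 tested genes could be matched in RefSeq (GRCm38.p6, 250 bases before to 50 bases after the RefSeq start). They held a median of 22 CG pairs, beside 7 over the promoters of all 27025 genes, which include genes silent in these cells. The promoters below, with each CG pair in capitals, are those of *Mtap* and *Klhl9*, which lay low in sg*Kmt2c* 1 and 2 only, and of *Hacd4* and *Fggy*, which lay low in all 3 sg*Kmt2c* lines. The first pair hold 14 and 22 CG pairs, and the latter hold 9 and 10. They are a selection from the 23 matched promoters, which held 0 to 46 CG pairs. The RefSeq start can differ from the listed start, and the *Mtap* stretch lies almost wholly inside the listed interval of the gene. Whether the number of CG pairs goes with either pattern was not tested.
Mtap (chr4:89137120-89137419, plus strand): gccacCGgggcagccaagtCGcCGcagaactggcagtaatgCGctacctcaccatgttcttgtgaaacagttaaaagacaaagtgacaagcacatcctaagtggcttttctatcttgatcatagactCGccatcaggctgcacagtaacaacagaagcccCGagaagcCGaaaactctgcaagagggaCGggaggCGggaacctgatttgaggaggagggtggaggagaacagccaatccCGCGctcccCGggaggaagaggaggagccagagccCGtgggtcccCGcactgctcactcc
Klhl9 (chr4:88722459-88722758, minus strand): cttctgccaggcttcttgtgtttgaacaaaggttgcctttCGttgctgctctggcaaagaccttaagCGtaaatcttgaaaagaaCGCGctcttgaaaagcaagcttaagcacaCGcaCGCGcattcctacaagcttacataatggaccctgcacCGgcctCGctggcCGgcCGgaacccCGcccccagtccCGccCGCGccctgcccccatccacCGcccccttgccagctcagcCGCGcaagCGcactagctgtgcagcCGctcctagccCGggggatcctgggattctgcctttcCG
Hacd4 (chr4:88438866-88439165, minus strand): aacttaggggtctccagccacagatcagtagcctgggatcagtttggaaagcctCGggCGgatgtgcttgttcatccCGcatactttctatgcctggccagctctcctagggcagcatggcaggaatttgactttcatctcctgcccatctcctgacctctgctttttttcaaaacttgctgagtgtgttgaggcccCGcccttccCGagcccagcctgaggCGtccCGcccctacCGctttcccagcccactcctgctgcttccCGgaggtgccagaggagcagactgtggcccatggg
Fggy (chr4:95557257-95557556, plus strand): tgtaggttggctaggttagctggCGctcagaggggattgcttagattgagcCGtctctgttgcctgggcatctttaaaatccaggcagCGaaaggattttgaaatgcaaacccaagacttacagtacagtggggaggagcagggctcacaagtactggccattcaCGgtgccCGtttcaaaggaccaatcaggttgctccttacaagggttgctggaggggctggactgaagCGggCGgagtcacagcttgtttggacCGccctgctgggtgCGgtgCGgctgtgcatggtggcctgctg

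Of the type I interferon genes only *Ifnz* and *Ifne* had values by name in the interval, and these gave hardly any reads. *Ifnb1* and the *Ifna* genes had no values there, so their levels are not known. *Ifnz* had 1 read in a single sg*Trp53* line and *Ifne* 1 read in a single sg*Kmt2c* line, and neither could be tested. Beyond the interval, 8 of 9 genes of the interferon receptor and its signalling were tested. None passed an adjusted p-value under 0.05 by limma. At an unadjusted p-value under 0.05, 1 was lower (background 5.34%) and 1 higher (background 3.25%). The lower was *Jak1* (log2 fold change -0.71), on chromosome 4 itself, and the higher was *Irf3* (0.69). Their median log2 fold change was -0.24.

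Around *Cdkn2a* itself the nearest listed genes went in different directions. *Gm12606* is a predicted gene whose interval ends 1067 bases before that of *Cdkn2a* begins. It had 11, 8 and 36 reads (1.52, 1.27 and 4.41 RPKM) among sg*Trp53* lines and no read in any sg*Kmt2c* line. With 3 reads allowed in each of these libraries, it was at least 3.96-fold lower, and no test is given because the filter on low values selected it for this difference. *Gm12602* and *Gm12603*, predicted genes on the other side of *Mtap*, were not low. *Gm12603* measured 4.51, 1.82 and 12.9 RPKM across the sg*Trp53* lines, against 37.4, 13.6 and 17.4 across the sg*Kmt2c* lines, so its lines did not overlap and were higher in sg*Kmt2c*. Its log2 fold change was 1.86 (95% confidence interval 0.33 to 3.39, standard error 0.64, limma unadjusted p = 0.0242, adjusted p = 0.514), and it lost an unadjusted p-value under 0.05 without sg*Trp53* 1 and without sg*Trp53* 2. *Gm12602* had 6 to 13 reads in every line and a log2 fold change of 0.56. On the far side of *Cdkn2a*, beyond *Cdkn2b*, no flanking gene was tested until *Tusc1*, 4.06 Mb away. The other predicted genes tested, *Gm12418*, *Gm12657* and *Gm12693*, had at most 22 reads in a line and log2 fold changes of -0.18, 0.32 and -0.13.

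*Cdkn2a* was set beside its flank in each line. Its deviation was -4.27, -3.08 and -3.03 in sg*Kmt2c* 1, 2 and 3, and minus the median of the flanking genes in the same line it was -3.52, -2.75 and -3.12. Set among the 31 flanking genes by deviation, it was the lowest in sg*Kmt2c* 1 and 3. In sg*Kmt2c* 2 only *Plin2* and *Hook1* lay lower. The pseudocount of 1 limits how far a low gene can fall on this scale. As a percent of the sg*Trp53* mean RPKM, *Cdkn2a* stood at 4.963%, 11.57% and 12.04% in sg*Kmt2c* 1, 2 and 3. By that measure *Mpdz* (0 reads) and *Hacd4* (2.008%) lay lower in sg*Kmt2c* 1, and *Hacd4* (10.27%) also in sg*Kmt2c* 2. In sg*Kmt2c* 3 *Hacd4* (4.427%) and *Fggy* (10.08%) lay lower. *Gm12606*, with no read in these lines, could not be placed. *Cdkn2a* thus lay below the middle of its flank in every sg*Kmt2c* line, while the level of the flank differed between them. *Cdkn2b* deviated by 0.63, -0.95 and -1.44, highest in the line in which the flank was lowest, and *Rps6* by -0.57, 0.08 and 0.05.

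**Figure D2:**
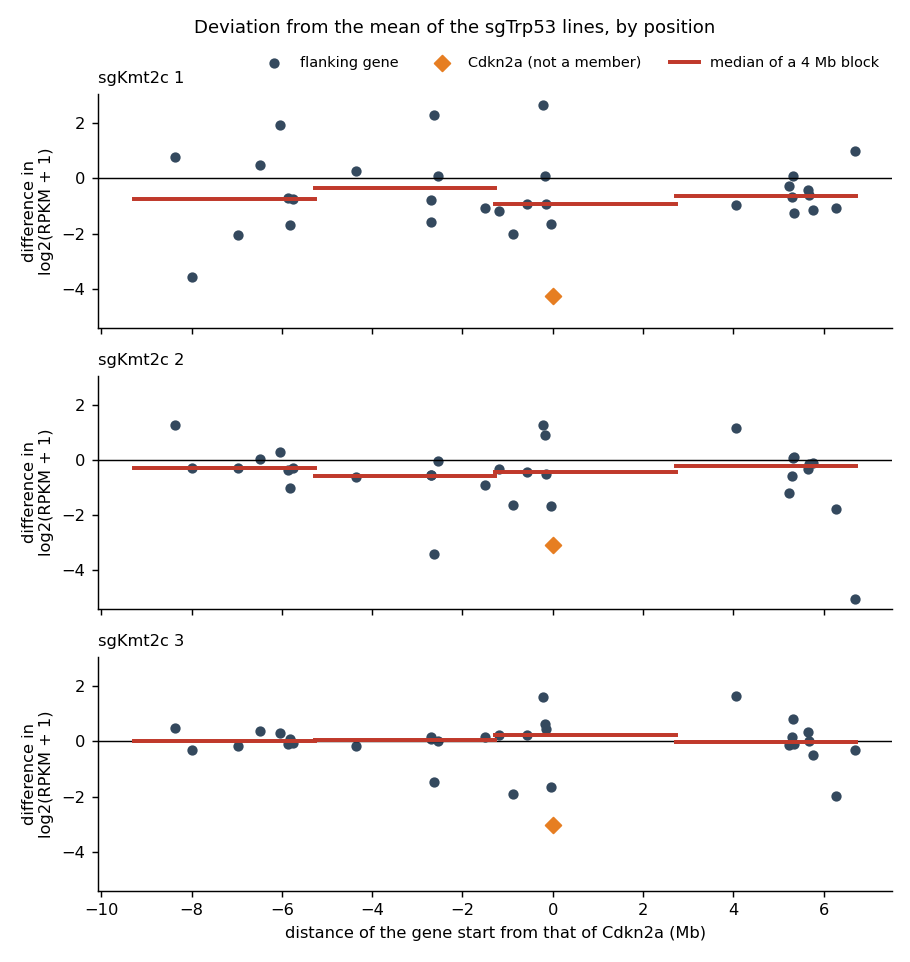
Deviation from the mean of the sgTrp53 lines (difference in log2(RPKM + 1)) of the 31 tested flanking genes (points) against the distance of their start from that of Cdkn2a (Mb), with a panel for each sgKmt2c line. Bars give the median of each 4 Mb block and the diamond Cdkn2a, which lies at -4.27, -3.08 and -3.03. The block medians run from -0.91 to -0.34 in sgKmt2c 1, from -0.58 to -0.23 in sgKmt2c 2 and from -0.03 to 0.23 in sgKmt2c 3.

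Within the interval the level was not lower next to *Cdkn2a* alone. In blocks of 4 Mb, which hold 8, 6, 7 and 10 tested genes, the median deviation in sg*Kmt2c* 1 was -0.73, -0.34, -0.91 and -0.63. In sg*Kmt2c* 2 it was -0.28, -0.58, -0.43 and -0.23, and in sg*Kmt2c* 3 it was 0.02, 0.06, 0.23 and -0.03. Every block lay below 0 in the first pair of lines, and the lowest block of the third line stood at -0.03. The longest run of neighbouring tested genes with a deviation below 0 was 3 genes in each sg*Trp53* line. It was 5 genes in sg*Kmt2c* 1 (from *Mtap* to *Plaa*), 12 genes in sg*Kmt2c* 2 (from *Snapc3* to *Klhl9*) and 3 genes in sg*Kmt2c* 3. The run of 12 includes *Dennd4c* at -0.03. Over the rest of chromosome 4, 80.3%, 70.6% and 49.65% of genes lay below 0 in sg*Kmt2c* 1, 2 and 3, and runs were not counted there.

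The low level was not limited to the neighbourhood of *Cdkn2a*. Over the rest of chromosome 4, with 715 tested genes, the median deviation was -0.72, -0.28 and 0.00 in the 3 sg*Kmt2c* lines, close to the -0.75, -0.34 and 0.09 of the flanking genes. In the adjacent interval from 64 to 80 Mb, with 10 tested genes, it was -0.45, -0.31 and 0.19. In the 16 Mb that follow the flank on its other side, with 63 tested genes, it was -0.65, -0.30 and 0.06. In all 10 intervals of 16 Mb along the chromosome it lay between -1.002 and -0.303 in sg*Kmt2c* 1, between -0.36 and -0.20 in sg*Kmt2c* 2 and between -0.09 and 0.27 in sg*Kmt2c* 3. Over all 746 tested genes of chromosome 4 other than those left out above, the median of -0.72 in sg*Kmt2c* 1 was the lowest of the 20 chromosomes, and the other 19 lay between -0.42 and 0.21. In sg*Kmt2c* 2 chromosome 4 stood at -0.29 and ranked 3 from the lowest, above chromosome 3 at -0.56. In sg*Kmt2c* 3 it ranked 13 at 0.00. Whether the copy number of chromosome 4 differed between the lines was not tested.

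**Figure D3:**
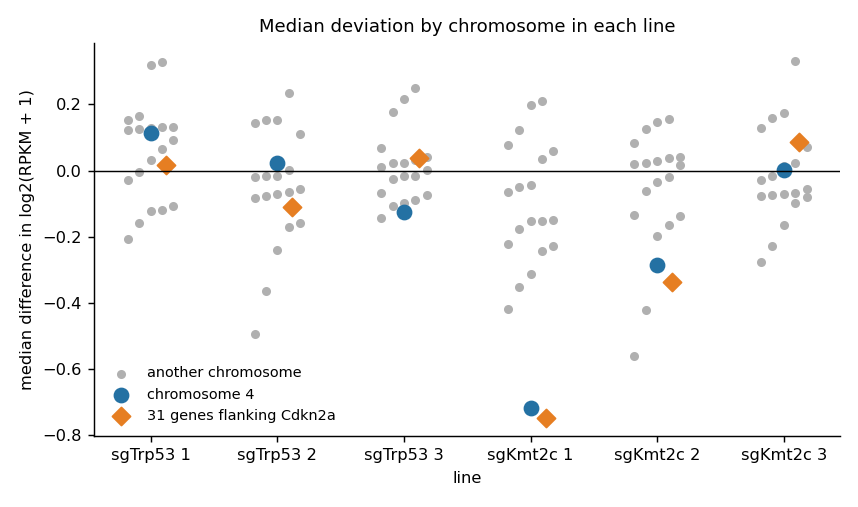
Median deviation (difference in log2(RPKM + 1) from the mean of the sgTrp53 lines, or of the other 2 for an sgTrp53 line) of the tested genes of each chromosome in each of the 6 lines. Gray points are the other 19 chromosomes, the circle is chromosome 4 and the diamond the 31 genes flanking Cdkn2a. In sgKmt2c 1 chromosome 4 (-0.72) and the flank (-0.75) lie below every other chromosome (-0.42 to 0.21), and in sgKmt2c 3 (0.00 and 0.09) they lie among them.

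Among the genes of transcription and chromatin, 7 of 10 were tested, 6 had a negative log2 fold change, none had an unadjusted p-value under 0.05 by limma, and the median was -0.57. Over all genes 58.0% had a negative log2 fold change, and the median over the rest of chromosome 4 was -0.33. *Psip1*, the chromatin reader LEDGF, reached 78.5, 74.8 and 67.3 RPKM in sg*Trp53* 1, 2 and 3 and 22.2, 35.4 and 78.7 RPKM in sg*Kmt2c* 1, 2 and 3. *Nfib*, a transcription factor of the nuclear factor I family, had a level of 31.96, 42.3 and 32.4 RPKM in sg*Trp53* cells compared with 7.82, 28.4 and 31.2 RPKM in sg*Kmt2c* cells. *Snapc3*, a subunit of the complex that starts transcription of small nuclear RNAs, measured 6.73, 6.95 and 6.56 RPKM across the sg*Trp53* lines, against 3.76, 5.08 and 6.24 across the sg*Kmt2c* lines. The lines of *Nfib* and *Snapc3* did not overlap (two-sided exact permutation test, p = 0.1 each, which 3 lines against 3 cannot go below), and in both sg*Kmt2c* 3 was the nearest to the lowest sg*Trp53* line and sg*Kmt2c* 1 the farthest from it. The log2 fold changes of *Psip1*, *Nfib* and *Snapc3* were -0.87, -0.84 and -0.38, with standard errors of 0.43, 0.50 and 0.25. *Jun*, a subunit of the AP-1 transcription factor, reached 24.4, 15.1 and 24.9 RPKM in sg*Trp53* 1, 2 and 3 and 9.05, 19.5 and 14.7 RPKM in sg*Kmt2c* 1, 2 and 3. *Mysm1*, a histone H2A deubiquitinase, had a level of 6.96, 6.41 and 5.73 RPKM in sg*Trp53* cells compared with 3.86, 5.63 and 6.46 RPKM in sg*Kmt2c* cells. Only *Tusc1*, named as a tumor suppressor candidate, had a positive log2 fold change (0.62), from 1, 20 and 35 reads among sg*Kmt2c* lines against 8, 8 and 16 among sg*Trp53* lines. *Bnc2*, a zinc finger factor that reached 1 RPKM in 2 lines only and was therefore not tested, had 160 reads in sg*Trp53* 2 and at most 25 in any other line. That line also held the highest sum of fibroblast markers, whose part in the *Bnc2* level was not tested. *Dmrta1* and *Elavl2* were close to silent. Of the 12 AP-1 genes 9 were tested and none passed an adjusted p-value under 0.05 by limma, with a median log2 fold change of 0.11. At an unadjusted p-value under 0.05 *Junb* was higher (log2 fold change 0.84), as were 3.25% of all tested genes. *Batf3* had a log2 fold change of -0.85, but it was under 1 RPKM in every sg*Kmt2c* line and passed the filter only through the sg*Trp53* lines, so no test is given for it.

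All 5 genes of protein turnover and growth signalling had a negative log2 fold change (58.0% of all genes did). Their median was -0.41, beside -0.33 over the rest of chromosome 4. *Rraga*, a GTPase that carries amino acid signals to mTORC1, measured 46.9, 49.7 and 39.0 RPKM across the sg*Trp53* lines, against 26.0, 30.5 and 47.9 across the sg*Kmt2c* lines. *Plaa*, a ubiquitin-binding cofactor of the segregase VCP, reached 54.0, 59.9 and 50.1 RPKM in sg*Trp53* 1, 2 and 3 and 34.1, 35.9 and 60.8 RPKM in sg*Kmt2c* 1, 2 and 3. Both repeated the pattern of *Mtap*, low in sg*Kmt2c* 1 and 2 only, with log2 fold changes of -0.41 and -0.37. *Caap1*, an inhibitor of apoptosis, did not. It had a level of 7.55, 6.87 and 7.44 RPKM in sg*Trp53* cells compared with 5.84, 2.58 and 6.66 RPKM in sg*Kmt2c* cells, and its lowest line was sg*Kmt2c* 2, with 20 reads. Its lines did not overlap (two-sided exact permutation test, p = 0.1), and the log2 fold change was -0.53 (limma adjusted p = 0.690). None of the 5 had an unadjusted p-value under 0.05 by limma.

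Of the cytoskeleton, centrosome and cilium genes 5 of 8 were tested, and 4 had a negative log2 fold change (58.0% of all genes did). The median was -0.40, beside -0.33 over the rest of chromosome 4. *Haus6*, a subunit of the augmin complex of the mitotic spindle, measured 17.3, 12.3 and 13.4 RPKM across the sg*Trp53* lines, against 4.14, 9.56 and 15.8 across the sg*Kmt2c* lines. *Ift74*, a subunit of intraflagellar transport in cilia, reached 14.0, 15.1 and 11.5 RPKM in sg*Trp53* 1, 2 and 3 and 5.06, 14.7 and 12.7 RPKM in sg*Kmt2c* 1, 2 and 3. *Haus6* lay under the sg*Trp53* lines in sg*Kmt2c* 1 and 2, whereas *Ift74* lay under the sg*Trp53* lines in sg*Kmt2c* 1 alone, and their log2 fold changes were -0.65 and -0.40. *Ccdc171* had 9 to 51 reads in a line and a log2 fold change of -0.36 (limma adjusted p = 0.747). *Dennd4c*, an exchange factor for Rab GTPases, was not low, with 9.30, 8.51 and 8.93 RPKM among sg*Kmt2c* lines within the 6.32 to 11.4 RPKM of the sg*Trp53* lines. *Hook1*, a linker of dynein to its cargo, varied most. It had a level of 146.9, 11.3 and 81.1 RPKM in sg*Trp53* cells compared with 104.9, 0.627 and 41.6 RPKM in sg*Kmt2c* cells. It was lowest in replicate 2 of both genotypes, and so were the 5 epithelial markers, which summed to 777.7, 24.9 and 500.0 RPKM and to 3920, 230.0 and 499.1 RPKM. Their part in the *Hook1* level was not tested. *Hook1* had a log2 fold change of -1.45 with a standard error of 1.66.

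The lipid genes differed among themselves. Of 4 tested, 2 had a negative log2 fold change, and the median was -0.28. *Plin2*, the coat protein of lipid droplets, measured 341.3, 200.6 and 265.3 RPKM across the sg*Trp53* lines, against 1287, 24.1 and 93.8 across the sg*Kmt2c* lines. It was thus the highest of all 6 lines in sg*Kmt2c* 1, where its neighbours were lowest, and below the sg*Trp53* lines in the other two. sg*Kmt2c* 1 was also the line with the highest sum of hepatocyte markers (1235 RPKM), whose part in the *Plin2* level was not tested. The log2 fold change of -0.86 had a standard error of 1.31, and its sign turned to 0.41 without sg*Kmt2c* 2. *Ttc39b*, a gene tied to cholesterol handling, shared the high value in sg*Kmt2c* 1, with 2.60, 6.598 and 4.80 RPKM among sg*Trp53* lines and 19.6, 5.62 and 5.62 RPKM among sg*Kmt2c* lines. *Zdhhc21*, a palmitoyltransferase, lay between 3.67 and 4.94 RPKM among sg*Trp53* lines and between 4.43 and 6.39 RPKM among sg*Kmt2c* lines. *Acer2*, a ceramidase, had 3, 12 and 2 reads among sg*Trp53* lines and 0, 0 and 1 among sg*Kmt2c* lines and was not tested. Because *Myc* had been delivered to every tumor, the E-box CACGTG, a motif bound by MYC with MAX, was searched in the matched promoters, and being a palindrome it reads alike on both strands. It was found in 1 of 23, that of *Plin2*, beside 7.24% of the promoters of all genes. In the sequence below the capitals mark it, at position 247 of 300.
Plin2 (chr4:86670010-86670309, minus strand): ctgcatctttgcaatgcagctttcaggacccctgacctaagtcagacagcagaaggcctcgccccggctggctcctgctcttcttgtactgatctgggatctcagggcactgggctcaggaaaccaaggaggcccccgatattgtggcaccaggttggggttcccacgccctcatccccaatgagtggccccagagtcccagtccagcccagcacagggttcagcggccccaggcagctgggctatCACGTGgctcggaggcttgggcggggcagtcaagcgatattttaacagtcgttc

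Of the junction, matrix and receptor genes *Mpdz* and *Lurap1l* were tested. *Mpdz*, a scaffold with many PDZ domains at tight junctions, lies about 8 Mb before *Cdkn2a*. It reached 9.04, 14.6 and 9.70 RPKM in sg*Trp53* 1, 2 and 3 and 0, 8.77 and 8.56 RPKM in sg*Kmt2c* 1, 2 and 3. In sg*Kmt2c* 1 it had 0 reads, which allows at most 0.0848 RPKM or 0.763% of the sg*Trp53* mean (counting error only, 3 reads), where the other lines had 243 to 583. No other tested flanking gene of this line except *Gm12606* was at 0, and *Nfib*, the next tested gene on the map, kept 336 reads there. *Mpdz* had a log2 fold change of -1.39 (standard error 0.88, limma adjusted p = 0.691), and without sg*Kmt2c* 1 it was -0.30. For *Nfib* it was -0.24 without that line. *Lurap1l* lay higher in sg*Kmt2c* 2 (15.6 RPKM) than in any other line and overlapped between the genotypes, at 2.30 to 14.2 RPKM among sg*Trp53* lines. *Adamtsl1*, a matrix protein related to ADAMTS proteases, had 0, 64 and 6 reads among sg*Trp53* lines and none among sg*Kmt2c* lines and was not tested. *Frem1* had no read in any line and *Tek*, the angiopoietin receptor of endothelial cells, at most 2, beside the low endothelial marker sums above.

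*Fggy*, a kinase of carbohydrate metabolism, was low in all 3 sg*Kmt2c* lines, like *Hacd4*. It lies from 95557507 to 95926939, 6.28 Mb beyond *Cdkn2a*. It stood at 4.16, 4.27 and 6.29 RPKM (48, 43 and 82 reads) among sg*Trp53* lines and at 1.796, 0.717 and 0.495 RPKM (16, 5 and 4 reads) among sg*Kmt2c* lines. Its fold change on the log2 scale was -1.60 (95% confidence interval -2.42 to -0.78, standard error 0.34, limma unadjusted p = 0.00265, adjusted p = 0.304), and the lines did not overlap (two-sided exact permutation test, p = 0.1). Among the sg*Kmt2c* lines only replicate 1 reached 1 RPKM. The gene thus met the filter on low values mainly through the sg*Trp53* lines, and its p-values are given as a description. The lowest line of *Fggy* was sg*Kmt2c* 3, in which the median of the flanking genes was at the level of the sg*Trp53* lines. In the remaining group of 3 genes *Fggy* and *Mtap* were tested.

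**Figure D4:**
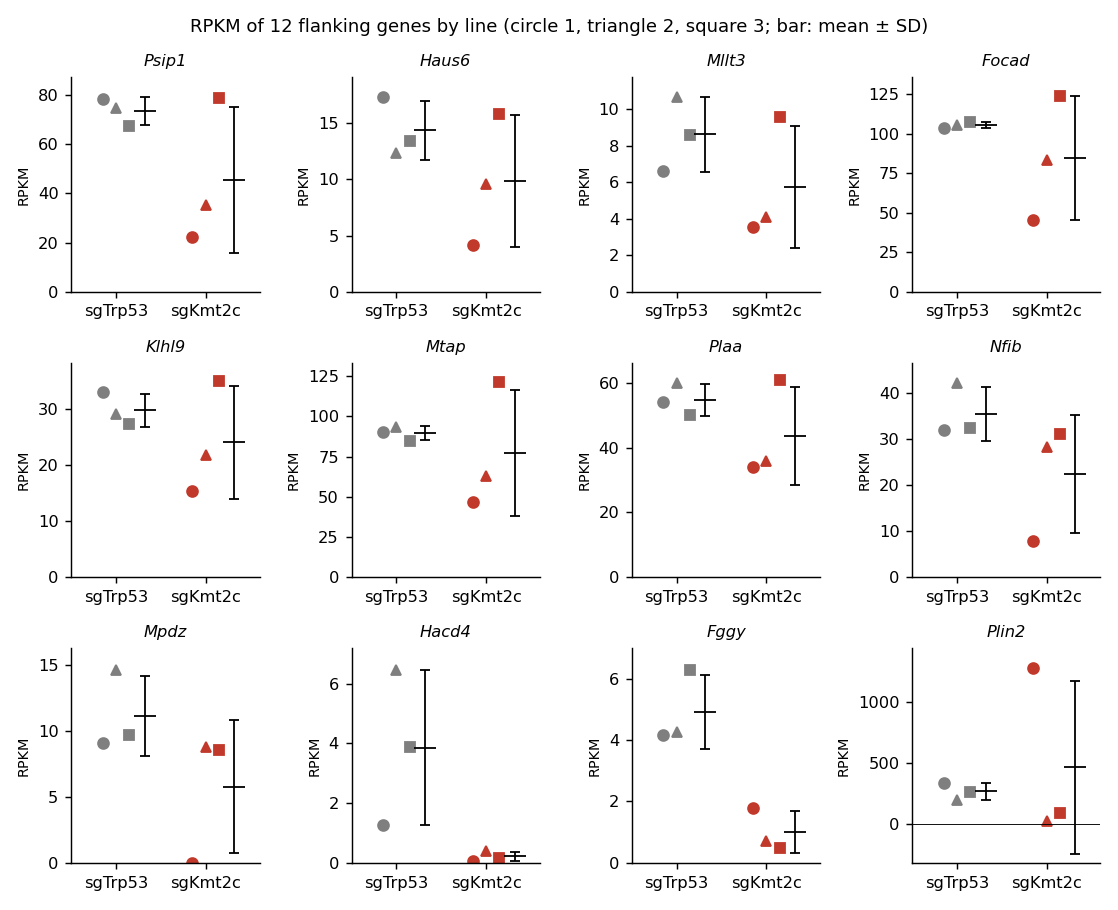
RPKM of 12 flanking genes in each line, with sgTrp53 lines in gray and sgKmt2c lines in red (circle, triangle and square for replicates 1, 2 and 3) and the mean ± SD of each genotype (n = 3 lines) as a bar to the right. In Psip1, Haus6, Mllt3, Focad, Klhl9, Mtap and Plaa the square of sgKmt2c 3 lies among or above the sgTrp53 lines while the circle and triangle lie below. In Hacd4 and Fggy all 3 lie below, and in Plin2 the circle stands at 1287 RPKM.

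*Mtap* was set beside the other genes of methionine salvage and of PRMT5, the arginine methyltransferase on which cells without MTAP depend. Of 21 names 19 are listed and 18 were tested, none passed an adjusted p-value under 0.05 by limma, and the median log2 fold change was -0.08. At an unadjusted p-value under 0.05, 2 were lower (background 5.34%) and none higher (background 3.25%). *Prmt5* had a level of 80.5, 101.1 and 90.0 RPKM in sg*Trp53* cells compared with 52.1, 62.3 and 73.5 RPKM in sg*Kmt2c* cells (log2 fold change -0.53, standard error 0.20). *Wdr77*, its partner in the methylosome, stood at 48.7, 69.5 and 55.0 RPKM and at 24.4, 30.4 and 34.4 RPKM (log2 fold change -0.93, standard error 0.22). Neither gene lies on chromosome 4, and in both the genotypes were apart, sg*Kmt2c* 3 included, unlike in *Mtap*. *Wdr77* lies on chromosome 3, whose median deviation was itself -0.42, -0.56 and -0.28 in sg*Kmt2c* 1, 2 and 3. For chromosome 14, which holds *Prmt5*, it was 0.06, -0.14 and -0.17. The part of these levels in the difference was not tested. *Srm*, the spermidine synthase, is a gene of this list on chromosome 4 outside the interval, and measured 181.1, 141.7 and 139.0 RPKM across the sg*Trp53* lines, against 50.4, 124.9 and 206.8 across the sg*Kmt2c* lines, lowest in sg*Kmt2c* 1 and highest in sg*Kmt2c* 3 like *Mtap*.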

How the data were processed

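RNA from 6 cultured liver tumor lines was sequenced from libraries of the TruSeq RNA Sample Prep Kit v2. Per the labels and the study's methods, the authors trimmed reads with Trimmomatic, aligned them with STAR to GRCm38 and counted them per gene with HTSeq. The deposited values used here are RPKM per gene, computed by the authors from whole reads over a listed transcript length, which for *Focad*, *Plin2* and *Hook1* is short (590, 551 and 433 bases) and raises their level but not their fold change. Of 21065 listed genes 20856 had values. Read numbers were recovered by multiplying RPKM by length, and 100% came out whole (within 0.001 of a read). A deposited table of the authors' own comparison, with fold changes and p-values, was not used, nor were 6 further sample columns and the sample sheets, which place all libraries in the same lanes of 1 flow cell.

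Genes with at least 1 RPKM in at least 3 libraries were tested with limma 3.58.1 (R 4.3.3), which fitted log2(RPKM + 1) by lmFit and moderated the variances along a mean-variance trend by eBayes, with p-values adjusted by Benjamini-Hochberg over all 11617, after the same code had been tested on simulated data. A pseudocount of 1 understates the fold changes of low genes. Levels of single genes were compared between genotypes with the exact two-sided permutation test. Named were the tested genes within 2 Mb of *Cdkn2a*, those whose lines did not overlap or with an unadjusted p-value under 0.05, the 5 highest and 5 lowest fold changes, and the members of the role lists; *Gm12657* and *Gm12693* were added after their values were seen. The genes of the interval and the lists were chosen with earlier results of these data known. Confidence intervals came from the limma fit and cover the spread between lines. Limits from 0 reads (3 reads) cover counting error only. Promoters came from RefSeq (GRCm38.p6). A model of read counts, as in the study's methods, was not used on RPKM. Alternatives covered the pseudocount, the filter, the scaling, the model, the interval and each line left out. Tables and plots were made with Python 3.11.15, pandas 2.3.3 and matplotlib 3.10.9.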

Additional observations from a re-analysis of the deposited data

How the results depend on the processing

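The count of flanking genes past an adjusted p-value under 0.05 was 0 in all 17 alternatives (limma), and the median log2 fold change of these genes stayed negative in all 18, from -0.61 without sg*Kmt2c* replicate 3 to -0.13 with no filter on low values, and it was -0.19 without sg*Kmt2c* replicate 1. The other counts moved with the lines. With 1 line left out in turn, the genes with an unadjusted p-value under 0.05 ranged from 3 to 11 lower and from 0 to 2 higher. Those whose lines did not overlap ranged from 7 to 17 lower and from 1 to 3 higher. Wherever an sg*Kmt2c* line was left out, the lower genes included *Hacd4* and *Gm12606*, whose place there follows from the filter on low values. With a filter at RPKM 5, which 21 flanking genes passed, 0 genes were lower at an unadjusted p-value under 0.05 and 4 without overlap. Quantile normalization gave 2 higher genes by either rule. Median-of-ratios scaling, as well as sg*Kmt2c* replicates 2 and 3 as 1 sample, gave 2 higher genes without overlap. The counts in this paragraph stand without the share over all genes under the same setting, and the backgrounds of the main fit do not apply to them.

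Signs of single genes that did not pass the test reversed in 9 cases. *Gm12418* turned to 0.20 under quantile normalization and *Plin2* to 0.075 with sg*Kmt2c* replicates 2 and 3 as 1 sample. Leaving out 1 line at a time, *Gm12418* had log2 fold changes from -0.39 to 0.041, that of *Plin2* from -2.43 to 0.41, that of *Hook1* from -2.67 to 0.34, that of *Dennd4c* from -0.17 to 0.21, that of *Ift74* from -0.66 to 0.023 and that of *Gm12693* from -0.36 to 0.12. The cause was not tested.

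The median deviation of the flanking genes in sg*Kmt2c* replicate 1 was -0.23 with no filter on low values. In the sg*Trp53* lines, whose spread is small, it moved to 0.00, 0.017 and 0.028 in replicate 2 with no filter, with the filter at RPKM 5 and under quantile normalization, and to -0.053 in replicate 3 with the filter at RPKM 5. Among the 4 Mb blocks, that from 80 to 84 Mb in sg*Kmt2c* replicate 1 was -1.16 with a pseudocount of 0.1, -0.11 with no filter, -1.19 with the filter at RPKM 5 and -0.30 under quantile normalization. In the same line the block from 84 to 88 Mb was -0.77 with the filter at RPKM 5, and that from 92 to 96 Mb was -0.22 with no filter and -0.30 under quantile normalization. In the sg*Trp53* lines the first block moved to -0.0072 (no filter) and -0.28 (filter at RPKM 5) in replicate 1, to 0.22 (filter at RPKM 5) in replicate 2 and to -0.14 (quantile normalization) in replicate 3. The block from 88 to 92 Mb in replicate 3 moved to 0.019 with no filter and -0.037 with the filter at RPKM 5, and that from 92 to 96 Mb to -0.015 and -0.069. With an sg*Trp53* line left out of the reference in turn, the first block ranged from -0.22 to -0.056 in replicate 1, from 0.11 to 0.22 in replicate 2 and from -0.11 to 0.056 in replicate 3. The block from 84 to 88 Mb ranged from -0.28 to 0.16 in replicate 3, that from 88 to 92 Mb from -0.053 to 0.15 in replicate 1 and from 0.024 to 0.053 in replicate 3, and that from 92 to 96 Mb from 0.0040 to 0.23 in replicate 3. The genes at their lowest in a line numbered 2 in sg*Trp53* replicate 2 and 0 in sg*Kmt2c* replicate 3 with the filter at RPKM 5, and 2 in sg*Trp53* replicate 3 and 3 in sg*Kmt2c* replicate 3 under quantile normalization.

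Same-numbered lines correlated by 0.192, 0.399 and 0.032 in their deviations from the genotype means. Of the 6 lines, 4 correlated best with the line of their own number in the other genotype. The labels name no pairing and the main fit did not pair the lines, and whether the numbers stand for something shared was not tested. With the replicate number as a block 0 genes passed the adjusted threshold, and the median log2 fold change was -0.38. At an unadjusted p-value under 0.05, 4 were lower and 1 higher, counts that stand without the share over all genes under that block. With 3 lines a genotype and 48 genes too low to test, differences of low genes were not detectable at this depth.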
